A study of Bos taurus with 6 samples.

Results

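The PTHrP axis and the regulators of chondrocyte hypertrophy were followed through 10 genes, PTHLH, PTH1R, IBSP, DLX5, MEF2C, RUNX2, COL10A1, MMP13, ALPL and ENPP1. A probe set was a member if its single annotated gene symbol was one of these. Of 24016 probe sets tested, 13 were members, and they stood for 9 of the 10 genes, among 9174 genes named on the array. No probe set carried the symbol RUNX2 in the annotation used, so this gene is not analysed here. IBSP, DLX5, MMP13 and ALPL had a pair of probe sets each. The genes were chosen with earlier results of these arrays known, and the probe sets of PTHLH and PTH1R and 1 of those of IBSP are on the list of regulated genes that the study drew up from the same arrays, so their direction is not independent of it.

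The samples were micromass cultures of bovine articular chondrocytes, the cells of joint cartilage, taken from metacarpal-phalangeal joints and plated as dense drops in which they lay down matrix. In the TGF-β1 group, 3 cultures (replicates 1 to 3) received TGF-β1 at 5 ng/ml for 8 hours, and 3 cultures with the same numbers were left untreated, which the treatment protocol calls vehicle. Cultures of 3 cows were grown both ways, full-thickness cartilage went into them, and their RNA was hybridised to Affymetrix Bovine Genome arrays, 1 array per culture. The values are on the log2 scale, and each probe set is centred on its median over the 6 arrays, so a value says how an array compares with the others and not how abundant the transcript was.

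In the growth plate, parathyroid hormone-related protein (PTHrP, encoded by PTHLH) acts on its receptor PTH1R and holds chondrocytes back from hypertrophy, the last stage before cartilage calcifies. Indian hedgehog, made by cells about to enlarge, raises PTHrP in turn and closes the loop. The transcription factors RUNX2, MEF2C and DLX5 drive hypertrophy, COL10A1 marks it, and MMP13, ALPL, IBSP and ENPP1 belong to the removal or the mineralization of the matrix. Articular cartilage is permanent and normally stays short of this stage, and hypertrophic genes are known to appear in osteoarthritis.

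With TGF-β1, the ligand gene PTHLH and ENPP1 rose, and the receptor gene PTH1R, 1 probe set of IBSP and 1 probe set of DLX5 fell. PTHLH was 4.11-fold higher, the IBSP probe set 4.5-fold lower and PTH1R 2.07-fold lower, while ENPP1 and DLX5 moved by less than 2-fold. The markers COL10A1, MMP13 and ALPL did not pass the test. A change was called at an adjusted p under 0.05 (Benjamini-Hochberg, over 24016 probe sets) in a limma model that also held the replicate number, called the paired fit below. Of the 13 member probe sets, 2 were higher, where 2.44% of all probe sets were, and 3 were lower, where 3.46% were, so that 5 of 13 changed, against 5.9% of all. The groups did not overlap in 6 of the 13, against 11% of all probe sets, with 2 higher (6.11% of all) and 4 lower (4.91%), and all 3 pairs differed in the same direction in 9, against 40.7%. The median log2 difference of the members was -0.07, against 0.01 over all probe sets. Without the replicate number, limma called 0 member probe sets and 0 of all 24016. Of the 13, 6 then had an unadjusted p under 0.05, against 5.73% of all, and 5 had one in the unequal-variance test of the methods, against 4.3%. Each array measured a whole culture, so fewer cells of a kind and less RNA per cell cannot be told apart.

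**Figure D1:**
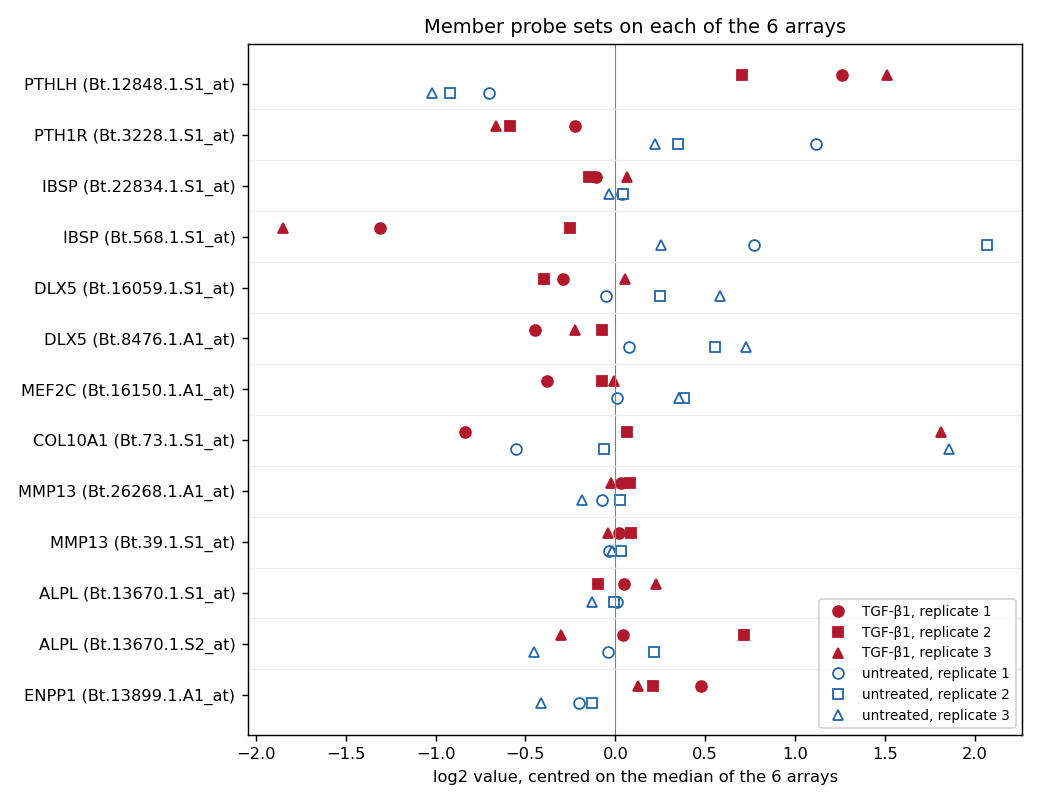
Log2 value of each of the 13 member probe sets on each of the 6 arrays, centred on the probe set's median (filled red symbols are TGF-β1 arrays, open blue symbols are untreated arrays, and shape gives the replicate). PTHLH and ENPP1 lie higher on every TGF-β1 array than on any untreated one, and PTH1R, 1 probe set of IBSP, 1 of DLX5 and MEF2C lie lower.

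The arrays differed more by replicate number than by treatment. Over all probe sets, the median share of the sum of squares that went with the replicate number was 59.6%, against 11.9% for the treatment. Both arrays of replicate 3 stood apart in cell cycle genes, of which 23 of a list of 30 were measured. Their median was 2.23 on the TGF-β1 array and 2.44 on the untreated array of replicate 3, against -0.29 to -0.04 on the other 4 arrays. In the TGF-β1 array of replicate 2, the spike-in controls were bright (median 1.53 over 18 probe sets, against -0.17 to 0.06 on the other arrays). Whether the cultures held other cells cannot be read as a level from centred values. The median of the chondrocyte markers (5 of 8 genes measured) ranged from -0.43 to 0.56 with TGF-β1 and from -0.35 to 0.59 untreated. The median of fibroblast and synovial markers ranged from -0.14 to 0.16 with TGF-β1 and from -0.04 to 0.18 untreated. That of osteoblast markers (3 of 5 measured) ranged from -0.05 to 0.02 with TGF-β1 and from -0.09 to 0.09 untreated. Single genes departed from these medians. In replicate 1, the probe sets of COL3A1 had -2.15 and -2.42 with TGF-β1 and -1.27 and -1.42 untreated. In replicate 3, PDPN had -0.01 with TGF-β1 and -1.66 untreated, and the chondrocyte gene COL11A2 had -2.43 and -1.74. In replicate 1, 1 probe set of the chondrocyte gene COL2A1 had -1.71 with TGF-β1 and -1.57 untreated. The other probe sets of COL2A1 had -0.23 to -0.09 with TGF-β1 and -0.08 to -0.03 untreated there. In replicate 2, 1 probe set of COL9A1 had 1.58 with TGF-β1 and 3.06 untreated, and the other had -0.02 and 0.04. The median of macrophage and leukocyte markers (4 of 5 genes measured) was 0.61 with TGF-β1 and 0.69 untreated in replicate 1, against -0.19 to 0.02 elsewhere. Of these genes, CD14 and CD68 were high in replicate 1, at 0.92 to 1.47 with TGF-β1 and 0.96 to 1.41 untreated. PTPRC and CSF1R were not, at -0.08 to 0.08 with TGF-β1 and -0.02 to 0.20 untreated. The median of endothelial and of adipocyte markers lay between -0.14 and 0.07 with TGF-β1 and between -0.06 and 0.23 untreated. That of the adipocyte list, with 3 of 4 genes measured, hides FABP4, a fatty acid-binding protein gene, which was far higher in replicate 3. Its probe sets had 3.81 and 2.31 on the TGF-β1 array and 5.27 and 3.93 on the untreated array of replicate 3, against -1.44 to 0.22 on the other TGF-β1 arrays and -0.63 to 0.25 on the other untreated arrays. No probe set of these lists passed the test, except for 1 probe set of FABP4 (-0.92, adjusted p = 0.0171) and 3 cell cycle probe sets that were lower. The part of these lists in the results below was not tested.

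PTHLH encodes the secreted peptide that keeps chondrocytes from becoming hypertrophic. Its probe set had log2 values of 1.26, 0.70 and 1.51 on the TGF-β1 arrays of replicates 1, 2 and 3, against -0.70, -0.92 and -1.02 on the untreated arrays. Every TGF-β1 array thus lay above every untreated array. The TGF-β1 arrays spread over 0.81, with replicate 2 the lowest, and the untreated arrays lay closer together, over 0.32. The log2 difference was 1.97, 1.62 and 2.53 in replicates 1, 2 and 3, with an SD of 0.458 over the 3 pairs. Its mean was 2.04 (SE 0.164, n = 3 pairs, 95% interval 1.67 to 2.41), with an adjusted p of 0.000522 in limma's paired fit. This was the 19th largest increase among all probe sets by rank. Without the replicate number the SE was 0.224 and the adjusted p 0.25. PTHLH kept its call without any of the 3 replicates, at differences of 1.80 to 2.25.

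PTH1R encodes the receptor for PTHrP and parathyroid hormone, which signals mainly through cyclic AMP. Its probe set had values of -0.22, -0.59 and -0.66 with TGF-β1, against 1.12, 0.35 and 0.22 untreated. All 3 TGF-β1 arrays were lower than all 3 untreated arrays, and the array of replicate 1 was the highest in each group. The difference was -1.34, -0.94 and -0.88 in replicates 1, 2 and 3, with a mean of -1.05 (SE 0.124, n = 3 pairs, 95% interval -1.34 to -0.77, adjusted p = 0.00254 in limma's paired fit). Ligand and receptor therefore moved in opposite directions in each of the 3 pairs. PTH1R kept its call without any of the 3 replicates, with an adjusted p of 0.000764 to 0.0238, and just kept it after quantile normalization (0.0468). Without the replicate number the adjusted p was 0.525.

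**Figure D2:**
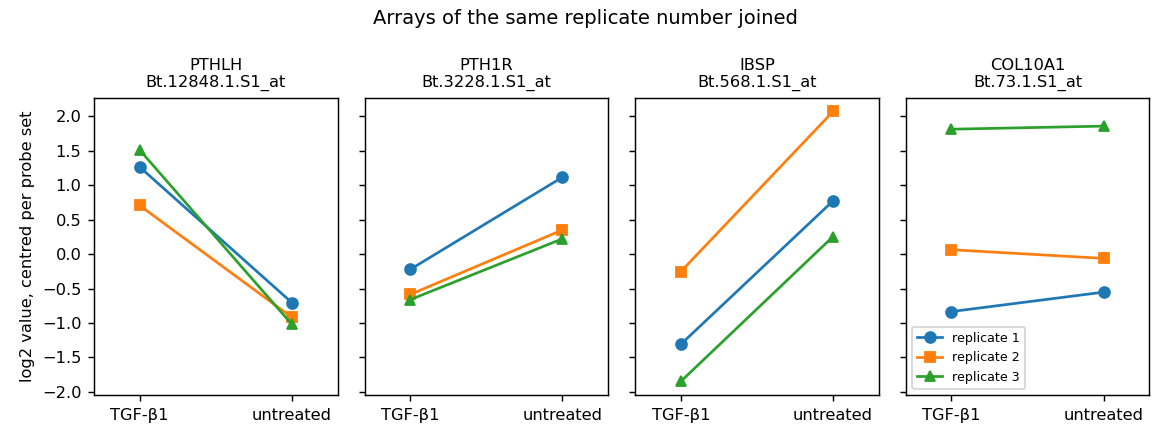
Log2 values, centred per probe set, of PTHLH, PTH1R, IBSP and COL10A1 (1 probe set each) with the TGF-β1 array at the left and the untreated array of the same replicate number at the right, joined by a line. The lines of PTHLH fall to the right and those of PTH1R and IBSP rise to the right in all 3 replicates, while the lines of COL10A1 run nearly level and replicate 3 lies at 1.81 with TGF-β1 and at 1.86 untreated.

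Among the regulators that drive hypertrophy, DLX5 and MEF2C were measured. DLX5 encodes a homeobox factor of skeletal development that promotes chondrocyte maturation. The probe set with an identifier ending in A1_at had values of -0.44, -0.08 and -0.22 with TGF-β1, against 0.08, 0.55 and 0.73 untreated. The groups did not overlap, although the untreated array of replicate 1 lay only a little above the TGF-β1 arrays. The mean difference was -0.70 (SE 0.121, n = 3 pairs, 95% interval -0.97 to -0.43), with an adjusted p of 0.0125 in limma's paired fit. Without replicate 2 the call was lost (adjusted p = 0.0645). The other probe set, ending in S1_at, had values of -0.29, -0.40 and 0.05, against -0.05, 0.25 and 0.58. Here the groups overlapped, since the TGF-β1 array of replicate 3 was above the untreated array of replicate 1. Its difference was -0.24, -0.64 and -0.53 in replicates 1, 2 and 3, with a mean of -0.47 (SE 0.119, adjusted p = 0.0561 in limma's paired fit). The probe sets of DLX5 thus shared their direction in all 3 pairs, and 1 passed the test. The mean over both, tested over genes, had a difference of -0.58 and an adjusted p of 0.0227.

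MEF2C encodes a transcription factor that in mice is needed for chondrocyte hypertrophy and is kept in check by histone deacetylases. Its probe set had values of -0.38, -0.07 and -0.01 with TGF-β1, against 0.01, 0.38 and 0.36 untreated. All TGF-β1 arrays were lower than all untreated arrays, but the highest TGF-β1 array and the lowest untreated array nearly met. The difference was much alike in the 3 pairs, at -0.39, -0.45 and -0.37. Its mean of -0.40 (SE 0.104, n = 3 pairs, 95% interval -0.64 to -0.17, an interval not adjusted for the number of tests) had an adjusted p of 0.0612 in limma's paired fit and so did not pass. When genes were tested in place of probe sets in limma's paired fit, the same difference had an adjusted p of 0.0415. That fit held fewer tests and estimated the spread anew, and what moved the p was not examined.

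**Figure D3:**
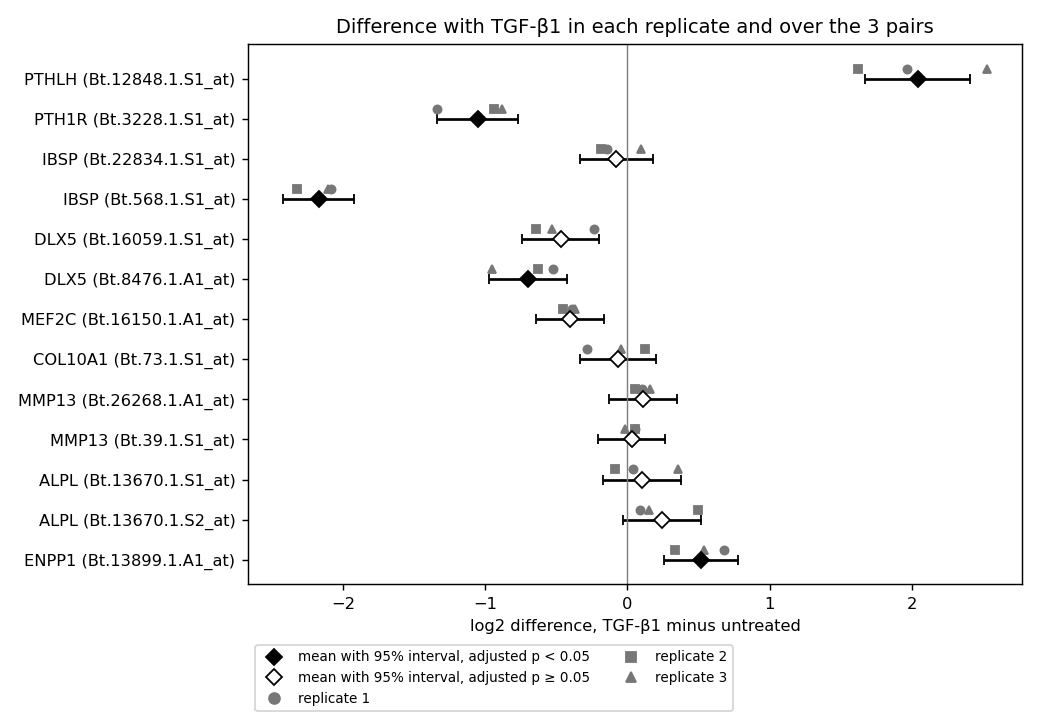
Log2 difference, TGF-β1 minus untreated, of the 13 member probe sets, with grey symbols for replicates 1 to 3 and diamonds for the mean with limma's 95% interval (filled where the adjusted p was under 0.05). PTHLH and ENPP1 lie to the right of 0 and PTH1R, 1 probe set of IBSP and 1 of DLX5 to the left as filled diamonds.

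IBSP encodes bone sialoprotein, an acidic matrix protein of hypertrophic cartilage and bone that binds integrins and hydroxyapatite. The probe set that is annotated with a RefSeq mRNA had values of -1.31, -0.25 and -1.85 with TGF-β1, against 0.77, 2.07 and 0.25 untreated. The groups did not overlap, and in both of them replicate 2 was the highest and replicate 3 the lowest. Replicates within a group ranged over 1.59 with TGF-β1 and over 1.81 untreated. The difference was nevertheless nearly constant, at -2.08, -2.32 and -2.10, with an SD of 0.135 over the 3 pairs. Its mean was -2.17 (SE 0.110, 95% interval -2.42 to -1.92), the fourth largest decrease among all probe sets, with an adjusted p of 0.000112 in limma's paired fit. Without the replicate number the SE was 0.577 and the adjusted p 0.566. Without replicate 1, 2 or 3 the paired difference was -2.21, -2.09 and -2.20, each with an adjusted p of at most 0.00324.

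The second probe set of IBSP, annotated without a RefSeq mRNA, did not follow the first. It had values of -0.11, -0.15 and 0.06 with TGF-β1, against 0.04, 0.04 and -0.04 untreated, and the groups overlapped. Its mean difference was -0.08 (SE 0.112, 95% interval -0.33 to 0.18, adjusted p = 0.790 in limma's paired fit). All its 6 values lay within 0.21 of one another, where those of the first probe set spanned 3.92. The difference of the second probe set lay above that of the first by 1.94, 2.14 and 2.20 in replicates 1, 2 and 3, a mean of 2.09 with an SD of 0.137. This is a comparison of 2 probe sets given as a description, and as levels are lost it cannot be said whether the second was above background. The fall of IBSP thus rests on 1 of its probe sets, and the mean over both was -1.12.

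COL10A1 encodes type X collagen, the collagen of hypertrophic cartilage. Its probe set had values of -0.83, 0.06 and 1.81 with TGF-β1, against -0.55, -0.06 and 1.86 untreated. The groups overlapped throughout, and the arrays ordered by replicate, with replicate 3 far above both others in each group. Of its sum of squares, 99.3% went with the replicate number and 0.0981% with the treatment. The difference was -0.28, 0.13 and -0.04 in the 3 pairs. The mean was -0.07 (SE 0.118, adjusted p = 0.830 in limma's paired fit), and its 95% interval of -0.34 to 0.20 corresponds to 0.793-fold to 1.15-fold. Without the replicate number, the interval widened to -2.14 to 2.01. Replicate 3 was also the one with the high cell cycle genes and FABP4, whose part in this was not tested.

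MMP13 encodes collagenase 3, which cleaves type II collagen in hypertrophic and osteoarthritic cartilage. The probe set ending in S1_at had values of 0.02, 0.09 and -0.04 with TGF-β1, against -0.03, 0.03 and -0.02 untreated. The probe set ending in A1_at had values of 0.03, 0.08 and -0.03 with TGF-β1, against -0.07, 0.03 and -0.19 untreated. Both had overlapping groups, and the 6 values of each lay within 0.128 and 0.271 of one another. The mean differences were 0.03 (95% interval -0.21 to 0.27) and 0.11 (95% interval -0.13 to 0.35), and neither passed the test in limma's paired fit (adjusted p = 0.922 and 0.656).

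ALPL encodes tissue-nonspecific alkaline phosphatase, which breaks down pyrophosphate and so lets mineral form. The probe set ending in S1_at had values of 0.05, -0.10 and 0.23 with TGF-β1, against 0.01, -0.01 and -0.13 untreated. The probe set ending in S2_at had values of 0.04, 0.71 and -0.30 with TGF-β1, against -0.04, 0.21 and -0.45 untreated. In both, the groups overlapped. The second varied more between replicates, with 83.6% of its sum of squares on the replicate number. Mean differences were 0.10 (95% interval -0.17 to 0.38) and 0.25 (95% interval -0.03 to 0.52), with an adjusted p of 0.733 and 0.314 in limma's paired fit. The probe sets of COL10A1, MMP13 and ALPL and the second probe set of IBSP are 6 in all. The lowest lower bound of their intervals was -0.34 and the highest upper bound 0.52, which leaves room for smaller changes of these probe sets. Such an interval does not bound the change of the gene, since the first probe set of IBSP had -2.17. As levels are lost, it cannot be said whether the flat probe sets of MMP13 and ALPL were above background.

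ENPP1 encodes the enzyme that makes extracellular pyrophosphate, the inhibitor of mineral growth that alkaline phosphatase removes. Its probe set had values of 0.48, 0.21 and 0.13 with TGF-β1, against -0.20, -0.13 and -0.41 untreated. The TGF-β1 arrays were all higher than the untreated ones. The difference was 0.68, 0.34 and 0.54 in replicates 1, 2 and 3, with a mean of 0.52 or 1.43-fold (SE 0.114, n = 3 pairs, 95% interval 0.26 to 0.78, adjusted p = 0.0333 in limma's paired fit). ENPP1 was the least secure of the 5 calls. It was lost without any of the 3 replicates (adjusted p = 0.0634 to 0.184) and after quantile normalization (0.0820).

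The share of each probe set's variation that went with the treatment set the members apart from one another. It was 94.1% for PTHLH, 78.3% for ENPP1, 74.2% for PTH1R, 71.2% for the called probe set of DLX5 and 69.8% for that of IBSP. In IBSP nearly all of the rest, 30.1%, lay between replicates, and 0.179% was left over. MEF2C, with 59.5% on the treatment, 40.0% on the replicate number and 0.524% left over, had the same form at a smaller size. The replicate number took a larger share than the treatment in 4 of the 13 probe sets, those of COL10A1 and MMP13 and 1 of ALPL. How many of all probe sets had this order was not counted, so the 4 cannot be set against a background. Over all probe sets the median share was 59.6% for the replicate number and 11.9% for the treatment. The replicate number has more levels than the treatment, which by itself tends to give it the larger share.

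**Figure D4:**
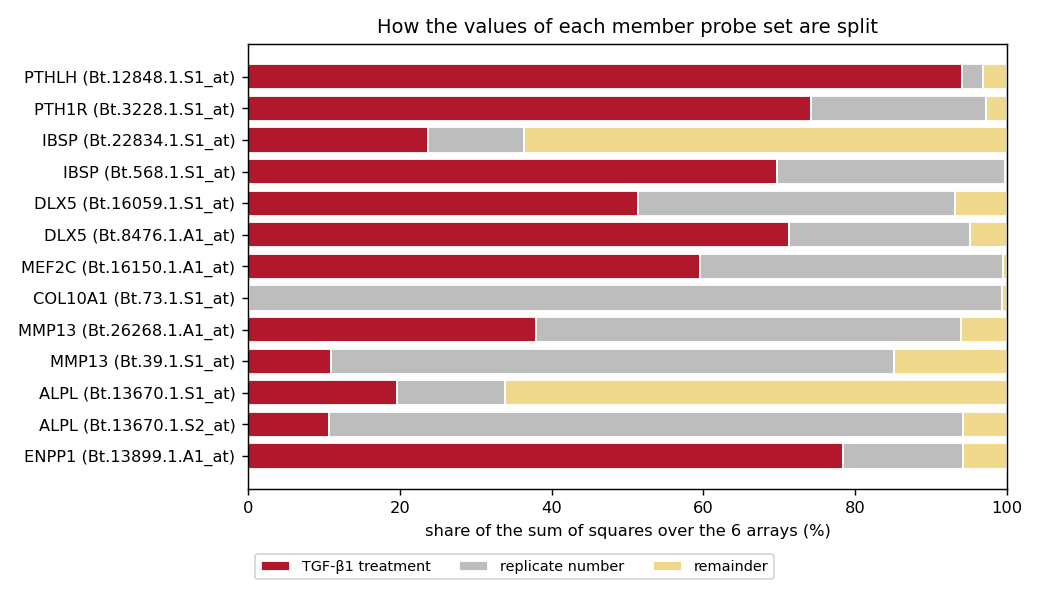
Share of the sum of squares of the 6 values of each member probe set that goes with the TGF-β1 treatment (red), the replicate number (grey) and neither (yellow), in percent. The red part is 94.1% for PTHLH and 0.0981% for COL10A1, where the grey part is 99.3%.

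The remaining genes of the loop were taken from a list of hedgehog and PTHrP signalling, of whose 30 genes 17 were measured by 26 probe sets. None of these was higher and 1 was lower at the threshold, 1 of 26 against 5.9% of all probe sets, with a median difference of -0.02. The probe set that fell was that of BOC, which encodes a co-receptor for hedgehog ligands (-0.49, SE 0.117, adjusted p = 0.0464). It lost its call without replicate 1 or 2 (adjusted p = 0.154 and 0.198) and after quantile normalization (0.103). IHH, which encodes the Indian hedgehog ligand itself, had values of 1.33, -0.41 and 1.92 with TGF-β1, against -0.52, -0.41 and 0.41 untreated. It was higher in replicates 1 and 3, by 1.85 and 1.52, and by 0.01 in replicate 2, and its mean of 1.12 (SE 0.290) did not pass (adjusted p = 0.0610). The IHH difference depended on the replicates left in. It was 0.76 without replicate 1 (adjusted p = 0.189), 1.68 without replicate 2 (0.00661) and 0.93 without replicate 3 (0.0917), and it did not pass after quantile normalization (0.117) or with a robust prior (0.111). The hedgehog receptor gene PTCH1 had a difference of 0.12 (adjusted p = 0.606), and the 5 probe sets of GNAS, which encodes the G protein that couples PTH1R to cyclic AMP, had differences of -0.03 to 0.37, of which none passed.

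Of a list of 35 transcription regulators of hypertrophy, 11 were measured by 18 probe sets, with 1 higher, 0 lower and a median of 0.01, and 1 of 18 is near the 5.9% of all probe sets. The probe set that rose was that of FOXA3, which encodes a forkhead factor that acts with FOXA2 in hypertrophic chondrocytes of the mouse (0.82, SE 0.111, adjusted p = 0.00480). Its differences were 0.87, 0.93 and 0.65 in the 3 pairs, but the groups overlapped. FOSL2, a Fos-related factor, had the next smallest p, on 1 of its 3 probe sets (0.33, adjusted p = 0.201), and the others had 0.05 and 0.01 (adjusted p = 0.879 and 0.982). The 3 probe sets of MEF2A, the relative of MEF2C, had -0.21 to 0.00 and did not pass. Neither did those of HDAC5 and HDAC7, which encode histone deacetylases of the class that binds MEF2 factors, at -0.27 to -0.10.

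Among 30 genes of mineralization, 24 were measured by 44 probe sets, of which 2 were higher, 1 was lower and 41 did not pass, with a median of 0.02. These 3 of 44 are near the 5.9% of all probe sets. Both that rose belong to VEGFA, the angiogenic factor that hypertrophic chondrocytes release (1.28 and 1.19, SE 0.148 and 0.159, adjusted p = 0.00232 and 0.00452), and 1 of them is on the study's own list. Of 4 probe sets of MGP, whose product inhibits calcification, 1 fell (-0.47, SE 0.108, adjusted p = 0.0387). It lost its call without any of the 3 replicates (0.0952 to 0.142) and after quantile normalization (0.0632). SPP1, which encodes osteopontin, an acidic phosphoprotein of the same family as bone sialoprotein, had a difference of 0.02 (adjusted p = 0.949), and BGLAP, the osteocalcin gene, one of -0.02 (adjusted p = 0.939). ANKH, whose product brings pyrophosphate out of the cell and thus bears on the same pool as ENPP1 and ALPL, had 0.52 and 0.20 on its probe sets and did not pass (smallest adjusted p = 0.123).

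In the list of 20 chondrocyte matrix genes, 13 were measured by 30 probe sets, with 4 higher and 5 lower, against 2.44% and 3.46% of all probe sets, and a median of -0.10. The 9 belong to 4 genes, and probe sets of 1 gene do not count as separate measurements of the list. Of 7 probe sets of COL11A1, a fibrillar collagen of cartilage, 4 fell (-0.998 to -0.682). Of these, 1 lost its call without replicate 1 (adjusted p = 0.131) and 2 without replicate 2 (0.0778 and 0.055). The probe set of CNMD, which encodes the angiogenesis inhibitor chondromodulin, fell by 0.59 (adjusted p = 0.0293) and lost its call without replicate 1 or 2 (0.165 and 0.137). PRG4, the lubricin gene of the cartilage surface, rose on 2 of 4 probe sets (1.84 and 1.34), and COMP, a cartilage glycoprotein, on both (1.05 and 0.79). Both COMP calls were lost without replicate 1 (adjusted p = 0.0876 and 0.0751), and 1 also without replicate 3 (0.0557) and with a robust prior (0.0716). After quantile normalization, both COMP calls (0.0849 and 0.0653), that of CNMD (0.0722) and 1 of COL11A1 (0.0989) were lost. None of the 3 probe sets of aggrecan (ACAN) and the 4 of type II collagen (COL2A1) passed, with differences of -0.40 to 0.13 and -0.26 to 0.24.

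**Figure D5:**
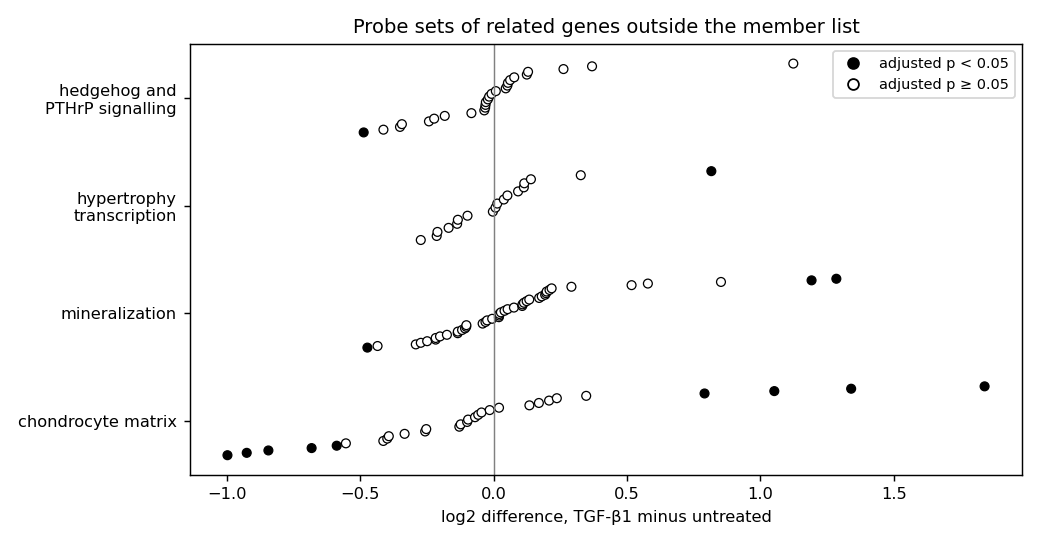
Log2 difference, TGF-β1 minus untreated, of every measured probe set on the 4 lists of related genes, filled where the adjusted p was under 0.05. Over the 4 lists, 7 probe sets are filled to the right of 0 and 7 to the left, and the hedgehog and PTHrP list has IHH as the open point far to the right.

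The probe sets most like that of PTHLH, by the distance between their 6 centred values, were those of ARSI, an arylsulfatase gene (distance 0.579 in log2 units, r = 0.975), CTTNBP2, which encodes a cortactin-binding protein (0.678, r = 0.978), TNFAIP6, whose product binds hyaluronan (0.771, r = 0.969), and a probe set annotated as WARS1, which the study's own list names otherwise (0.857, r = 0.981). For the probe set of IBSP that fell, they were those of SORBS2, an adaptor of the actin cytoskeleton (0.838, r = 0.971), 2 of the acyltransferase gene MBOAT1 (1.16 and 1.19, r = 0.95 and 0.947), and 1 of APOD, the apolipoprotein D gene (1.32, r = 0.953). SORBS2 had values of -1.08, -0.53 and -2.30 with TGF-β1, against 0.63, 1.55 and 0.53 untreated, and so had the order of replicates that IBSP had. The correlations are over 6 arrays that share the treatment and the replicate number, and describe these arrays only.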

How the data were processed

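The authors read the scanner files into GeneSpring and normalized them with Robust Multichip Average (RMA). The deposited values are on the log2 scale and centred per probe set (largest absolute median over the 6 arrays 5e-07), so levels are lost and dim probe sets could not be filtered out. After 112 array controls were left out, 24016 probe sets were tested. The platform annotation gave 13292 of them 1 symbol, 86 several and 10638 none. Current symbols came through the Entrez ID for 13263, and 24 were named only by the study's list.

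Differences, TGF-β1 minus untreated, came from limma 3.58.1 in R 4.3.3 (lmFit and eBayes, 2-sided), with a term for the replicate number. SEs and intervals are limma's moderated ones and are not adjusted for the number of tests. They draw on the spread over all probe sets as well as that of the 3 pairs, which leaves 2 residual degrees of freedom. For a given probe set they can be narrower or wider than its 3 pairs alone would give. The fit was run on simulated arrays with the same noise level in every probe set. This checks the code, not how the fit behaves on these arrays. Per the methods, cultures of each cow were grown with and without TGF-β1, but no label ties a number to a cow. Arrays of the same number deviated together from their group means (r = 0.740, 0.694 and 0.845 across probe sets, against -0.683 to 0.185 for other numbers). As deviations within a group cancel out, high values for the same number by themselves lower those for other numbers. No arrays were copies (at most 56 identical values). Having 3 arrays per group limits the precision.

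The members, the lists and the paired fit were chosen with earlier results of these data known. Named were all member probe sets, those of 4 lists past the threshold or with the 2 smallest p, and the 4 most like PTHLH and IBSP. PTCH1, GNAS, MEF2A, HDAC5, HDAC7, SPP1, BGLAP, ANKH, ACAN and COL2A1 were added for their roles after their values were seen. Single cell type markers (COL3A1, PDPN, COL11A2, COL2A1, COL9A1, CD14, CD68, PTPRC, CSF1R and FABP4) were also picked after their values were seen. Alternatives were no replicate number, quantile normalization, median centring, a robust prior, leaving out replicates, gene means, the platform annotation alone, and the test and the rule of the methods. No sequences were used here.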

Additional observations from a re-analysis of the deposited data

How the results depend on the processing

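The calls rest on the replicate block. With no replicate block, 0 member probe sets were higher and 0 lower in limma, and 0 and 0 on the 4 lists, as also in the unequal-variance test of the methods. Quantile normalization left 1 member higher and 3 lower, and 5 and 3 on the lists. The rule of the methods (2-fold, unadjusted p under 0.05) named 1 and 2 members and 1 and 0 on the lists, where 0.271% and 0.258% of all probe sets were. Median centring, the robust prior and the annotation alone gave 2 and 3 members, and gene means gave 2 and 4. Leaving out replicates, the members numbered 0 to 1 higher and 0 to 3 lower, and the lists 0 to 8 and 0 to 6, the 0 in each case without the block. With the block they were 1 and 2 to 3, and 6 to 8 and 2 to 6. No member past the threshold turned its direction in any alternative. Of members that did not pass, COL10A1 had a difference of 0.0027 after quantile normalization, and, leaving out replicates, -0.163 to 0.040 with the block and -0.799 to 0.654 without it (0.523 without TGF-β1 replicate 1, 0.0749 without TGF-β1 replicate 2). The ALPL probe set ending in S1_at had -0.0247 to 0.197 with the block and the one ending in S2_at -0.0358 to 0.473 without it, and the MMP13 probe set ending in S1_at -0.0025 to 0.0614 without it. Among listed probe sets, BOC had -0.947 to 0.0061 and 1 of COL11A1 -1.487 to 0.020 without the block. An exact 2-sided permutation test cannot go below 0.25 with sign changes of 3 pairs, or below 0.10 with 3 arrays against 3.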
